A study of Mus musculus with 9 samples.

Results

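The Rab GTPases were taken as every protein-coding gene whose GENCODE M21 symbol is Rab followed by digits, with an optional letter and a further digit. This gave 59 of the 55401 genes in the count table. Of these, 46 passed the filter on low counts and were among the 13501 genes tested. The other 13 were Rab15, Rab25, Rab26, Rab27b, Rab30, Rab33a, Rab37, Rab39b, Rab3b and Rab40b, with 3 to 40 counts over all libraries, and Rab17, Rab3c and Rab9b, which had 0 counts in every library.

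Rab proteins are small GTP-binding switches of the Ras superfamily that mark membranes of the secretory and endocytic routes. Guanine nucleotide exchange factors (GEFs) load them with GTP, after which they bind effectors such as motors, tethers and kinases, and GTPase-activating proteins (GAPs) return them to the GDP form. Lipid tails added by a prenyl transferase anchor them in membranes, and GDP dissociation inhibitors carry them through the cytosol. In macrophages, successive Rab proteins accompany a phagosome from its closure at the cell surface to its fusion with lysosomes.

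Poly(A) RNA was sequenced from mouse peritoneal macrophages recruited by thioglycollate, an irritant. Libraries came from wild-type mice (WT), mice with alanine in place of Ser807 of STAT6 on both alleles (genotype Stat6S807A/S807A, SA) and mice with glutamate there (Stat6S807E/S807E, SE), with 3 libraries for each genotype. Cells of all genotypes were cultured in DMEM containing 10% fetal bovine serum and harvested once they had briefly adhered, and no further treatment, age, sex or strain is named in the labels. STAT6 is the transcription factor downstream of the interleukin-4 and interleukin-13 receptors, so the comparisons ask how Rab transcripts differ between each mutant and WT and between the mutants. Whether the libraries came from separate animals is not said in the labels. The p-values therefore reflect the spread among these samples, which may be technical. Because the RNA is from whole cultures, fewer cells of a type and less RNA per cell cannot be told apart.

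Library totals ran from 17286617 to 24618608 counts. Stat6 was read first, as the gene that carries the mutations. It stood at 197.9, 201.4 and 187.0 CPM (counts relative to library size after TMM scaling) in the WT libraries, 194.6, 199.5 and 199.8 in those of SA, and 291.4, 284.2 and 312.3 in those of SE. All SE libraries lay above all others, 1.51-fold above WT (edgeR adjusted p = 6.27e-06). Gene counts do not show the base changes themselves, so this level cannot check the genotype labels. All 10 macrophage markers were tested, and their summed level was 19556.4 to 24617.3 CPM in WT, 19905.7 to 20593.1 in SA and 19792.8 to 22501.7 in SE. Of the 10, 2 were called higher in SA vs WT, 1 higher and 3 lower in SE vs WT, and 2 lower in SE vs SA. Over all tested genes 4.07%, 5.04% and 10.2% were called in these comparisons, in either direction. Summed levels of the 12 mesothelial and fibroblast markers were 10.4 to 11.4 CPM in WT, 52.9 to 58.8 in SA and 17.5 to 19.3 in SE, with Msln, Wt1 and Lrrn4 at 0. For the 9 neutrophil markers the sums were 54.4 to 62.4, 36.9 to 40.4 and 45.4 to 47.6 CPM, with Ly6g and Retnlg at 0. For the 5 epithelial markers they were 6.34 to 7.19, 7.03 to 9.08 and 13.3 to 15.8 CPM, with Krt19 at 0. The 9 T and NK cell markers summed to 5.15 to 6.34, 5.09 to 5.71 and 4.24 to 4.71 CPM, with Ncr1, Nkg7, Cd3g and Cd3e at 0. The 7 dendritic cell markers summed to 2.28 to 2.58, 1.99 to 3.57 and 1.67 to 2.09 CPM. Platelet and red cell markers summed to 26.4 to 32.6, 22.8 to 26.5 and 29.9 to 32.8 CPM, and resident large peritoneal macrophage markers to 6.38 to 7.67, 7.64 to 9.04 and 8.38 to 9.06 CPM. Eosinophil markers ran from 21.1 to 28.5 CPM and mast cell and basophil markers from 0.103 to 0.605 CPM over all libraries, with the genotypes overlapping. Libraries WT2 and SE3 stood apart on the third principal component (scores of -16.24 and -17.09), opposite WT1 and SE2 (13.29 and 14.85).

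Transcripts of the endosomal and early secretory Rab proteins dominated the family. Levels were compared between genes as TPM (counts divided by exon length, as a share of the sum over protein-coding genes). The family summed to 4900.0, 4505.6 and 4703.3 TPM in the WT libraries, 4774.4, 4838.5 and 4706.7 for SA, and 4676.4, 4690.8 and 4439.8 for SE. The genotypes overlapped, with means of 4702.9 ± 197.2, 4773.2 ± 65.9 and 4602.3 ± 141.0 TPM (SD, n = 3 each). Rab7, Rab5c, Rab1b, Rab8b and Rab1a supplied 49.9% of the sum, and the 10 most abundant members 70.3%. Mean levels reached 100 TPM for 13 members, 10 TPM for 34 and 1 TPM for 43.

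**Figure D1:**
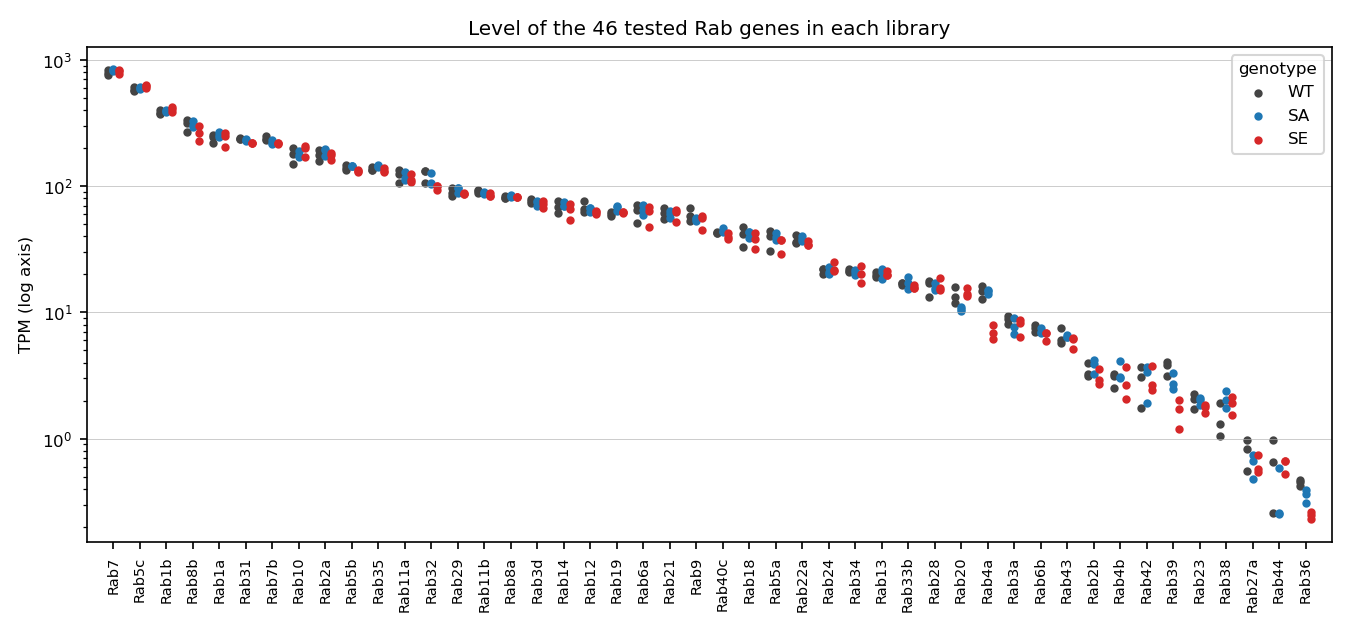
Level in TPM (log axis) of the 46 tested Rab genes in each library, in order of mean level, with WT, SA and SE points side by side. Rab7 leads with a mean of 809.0 TPM, Rab36 is last at 0.35 TPM, and the Rab4a and Rab39 points of SE lie below those of WT and SA.

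The 9 members that act at late endosomes and lysosomes held 25.2% of the family's TPM. Rab7, which drives the maturation of late endosomes and their fusion with lysosomes, was the most abundant member at 809.0 TPM. It measured 592.9, 586.1 and 573.0 CPM in the WT libraries, 597.2, 596.0 and 593.0 in those of SA, and 618.5, 617.6 and 594.3 in those of SE. In CPM every mutant library lay above every WT library, with SA3 (593.0) only just above WT1 (592.9). The differences were 0.03 (SA) and 0.06 (SE) on the log2 scale (standard error 0.05 for each). Neither passed the test (edgeR adjusted p = 0.902 and 0.567). In TPM Rab7 overlapped between genotypes, with WT1 (832.9) above SA3 (816.7) and all SE libraries. Its relative Rab7b, which acts between late endosomes and the trans-Golgi network, followed at 226.8 TPM, ahead of Rab12 and Rab9 at 65.1 and 55.8 TPM. The share of Rab7 in the summed TPM of Rab7 and Rab7b was 76.8% ± 0.246 in WT, 78.8% ± 0.583 in SA and 78.7% ± 0.49 in SE (SD, n = 3 each).

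Early endosomes and the entry of phagosomes accounted for 24.3% of the TPM, over 9 members. Rab5c led them at 600.1 TPM, above Rab31 (230.0 TPM), Rab5b (138.8 TPM) and Rab5a (37.6 TPM). The Rab5 proteins govern fusion of early endosomes, and Rab31 is their relative of the Rab22 group. Rab5c supplied 76.6% ± 1.87 of the TPM of the Rab5 trio in WT, 76.4% ± 0.561 in SA and 78.8% ± 0.923 in SE (SD, n = 3 each). Its SE libraries, at 397.3, 379.6 and 408.3 CPM, all lay above the SA libraries at 367.1, 348.5 and 363.9, and overlapped the WT libraries at 341.7, 390.6 and 355.0. The difference between SE and SA was 0.14 ± 0.06 on the log2 scale (standard error) and did not pass the test (edgeR adjusted p = 0.191).

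The early secretory and Golgi members, 13 genes of which 11 were tested, held 21.7% of the TPM. Rab1b and Rab1a, which direct traffic from the endoplasmic reticulum to the Golgi, averaged 394.5 and 244.6 TPM. Rab2a, which acts between the same organelles, stood at 178.7 TPM and its paralog Rab2b at 3.44 TPM. Exocytosis and polarized secretion took 14.1%, led by Rab8b (293.1 TPM) and Rab10 (182.9 TPM), which serve transport to the plasma membrane. Among recycling members, which made up 9.13%, Rab35 and Rab11a led at 138.3 and 118.5 TPM. Both return cargo from endosomes to the surface. The 6 genes of lysosome-related organelles held 4.35%, with Rab32 at 111.2 TPM and Rab29 at 90.0 TPM. The remaining class, 4 genes of the cilium and other roles, held 1.29%, led by Rab40c at 42.5 TPM and Rab28 at 16.1 TPM.

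In several pairs of paralogs 1 gene supplied nearly all the transcripts. Rab9 was read without any count of Rab9b, Rab2a supplied 98.1% of its pair in WT, and Rab40c 99.8%. Rab3d, a Rab of secretory granules, supplied 89.7% of the Rab3 set in WT and Rab6a, which acts at the Golgi, 89.0% of the Rab6 pair. Rab11a and Rab11b were closer, at 57.1% and 42.9% in WT.

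Few Rab genes differed between genotypes, and the numbers are read against all tested genes. In SA vs WT 0 of 46 passed (edgeR adjusted p under 0.05), where 4.07% of all tested genes did (1.97% higher and 2.1% lower), and DESeq2 also called 0. At an unadjusted p under 0.05 there were 4, namely Rab7b, Rab20, Rab32 and Rab39, all lower in SA, against 13.7% of all genes. In SE vs WT 3 of 46 passed, or 6.52% against a background of 5.04%, and all 3 were lower (2.35% of all genes were called higher and 2.69% lower). Taken unadjusted, at a p under 0.05, 1 was higher and 5 were lower, against 18.3% of all genes. In SE vs SA 1 rose and 1 fell, or 4.35% against 10.2% (4.77% higher and 5.42% lower). Taken unadjusted, at a p under 0.05, 3 were higher and 2 lower, against 22.7% of all genes. SA vs WT and SE vs WT share the WT libraries, and each mutant also enters SE vs SA.

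Differences over the family were small. The median over the 46 members was -0.02, -0.05 and -0.02 on the log2 scale in SA vs WT, SE vs WT and SE vs SA, and the medians of all genes were 0.001, -0.003 and -0.003. In each comparison 36 of 46 members lay within 1.1-fold, and 40, 40 and 41 lay within 1.2-fold. The median size of the difference, without its sign, was 0.054, 0.09 and 0.062 over the members. Over all genes it was 0.092, 0.115 and 0.129, which also lies within 1.1-fold. The libraries of the groups did not overlap for 7 members in SA vs WT (15.2%, against 19.3% of all genes), 8 in SE vs WT (17.4%, against 20.5%) and 8 in SE vs SA (17.4%, against 28.3%).

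**Figure D2:**
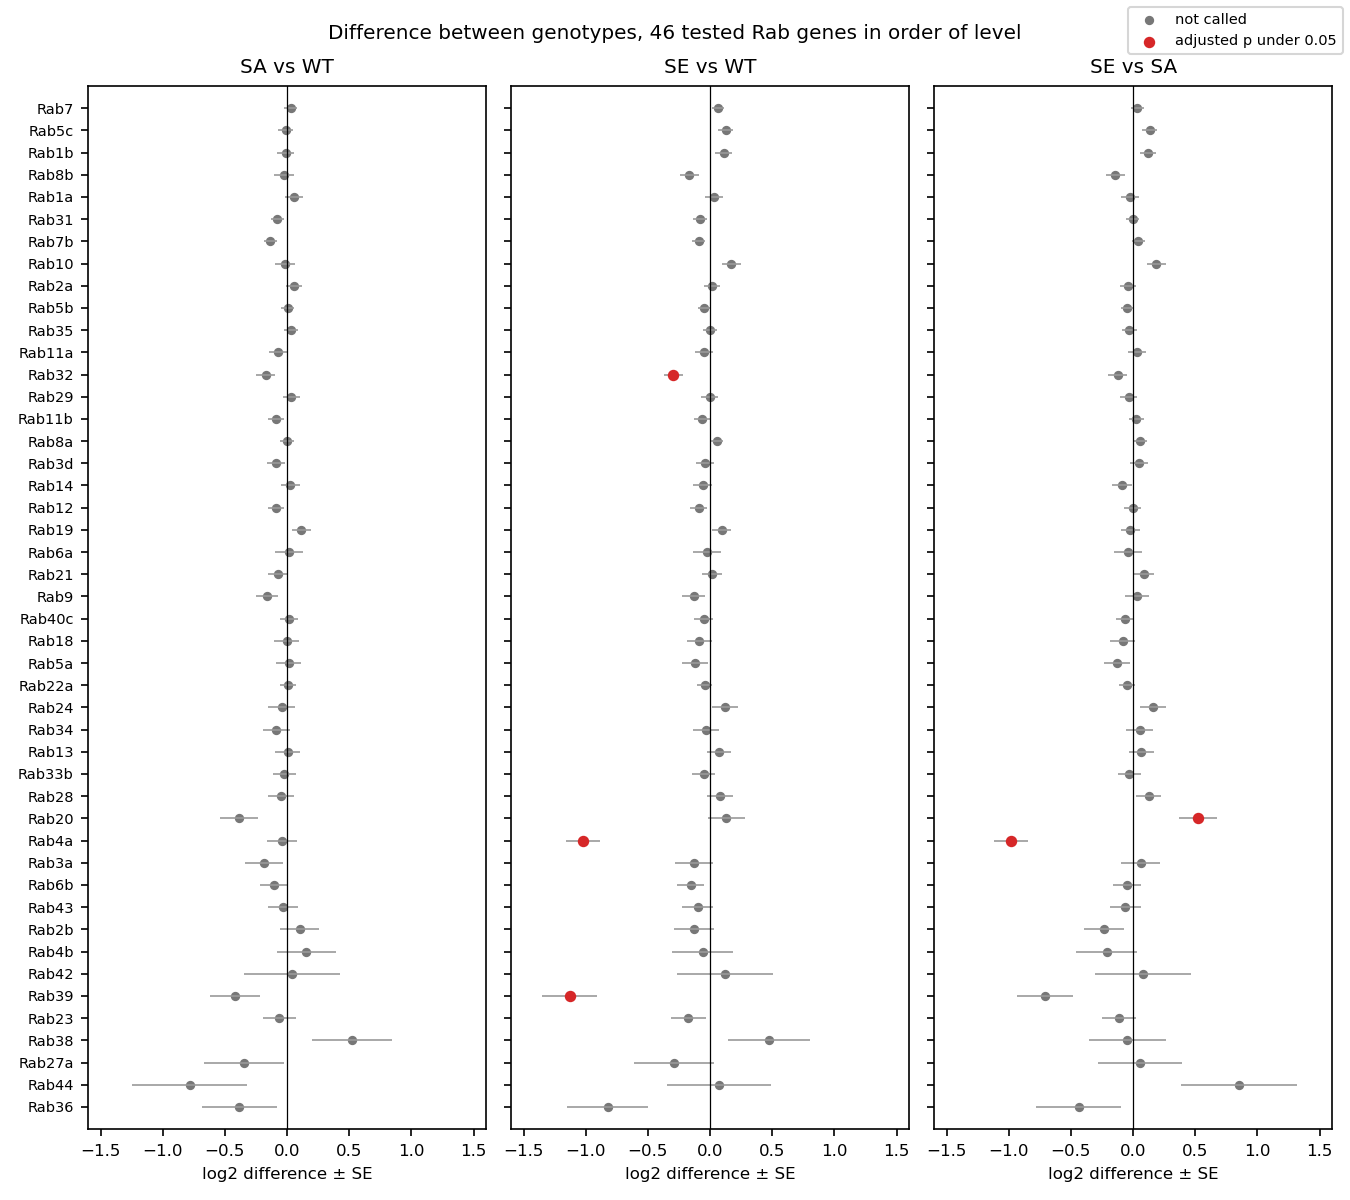
Log2 difference with its standard error for each of the 46 tested Rab genes in SA vs WT, SE vs WT and SE vs SA, ordered by level, with members at an edgeR adjusted p under 0.05 in red. Rab4a stands at -1.02 in SE vs WT and -0.98 in SE vs SA, Rab39 at -1.13 and Rab32 at -0.30 in SE vs WT, and Rab20 at 0.52 in SE vs SA, and 36 of 46 points in each panel lie within 1.1-fold of 0.

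Rab4a, which sends cargo from early endosomes straight back to the plasma membrane, fell in SE against both WT and SA. The gene (ENSMUSG00000019478) lies at mm10 chromosome 8, 123805985 to 123835287, plus strand. It measured 7.71, 6.63 and 7.35 CPM in the WT libraries, 7.14, 6.68 and 7.35 in those of SA, and 4.02, 3.08 and 3.56 in those of SE. Every SE library was below every WT and SA library, while WT and SA overlapped. Means were 7.23 ± 0.548, 7.05 ± 0.345 and 3.55 ± 0.468 CPM (SD, n = 3 each). SE was 2.03-fold below WT, at -1.02 ± 0.136 on the log2 scale with its standard error (edgeR adjusted p = 0.000215), and 1.97-fold below SA, at -0.98 ± 0.137 (edgeR adjusted p = 0.000162). SA vs WT gave -0.04 ± 0.123 (edgeR adjusted p = 0.945). Both calls held under all 19 other settings tried, with the highest adjusted p at 0.00698 and 0.00147. Its exons share no bases with other genes, although it lies in the span of the readthrough gene Gm20388.

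The paralog Rab4b had a mean of 3.07 TPM beside 12.1 TPM for Rab4a. It measured 1.68, 1.47 and 1.82 CPM in the WT libraries, 1.67, 1.63 and 2.26 in those of SA, and 1.52, 2.09 and 1.2 in those of SE. The genotypes overlapped, and SE vs WT gave -0.06 ± 0.246 on the log2 scale with its standard error (edgeR adjusted p = 0.936). Rab4a supplied 83.1% ± 0.974 of the summed Rab4 TPM in WT, 81.1% ± 2.29 in SA and 71.3% ± 7.88 in SE (SD, n = 3 each). Rab4b shares 65.0% of its exon bases with the readthrough gene Gm21983, so its counts are uncertain.

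Rab39, which takes part in the acidification of phagosomes, fell in SE as well. It lies at chromosome 9, 53684110 to 53706232, minus strand (ENSMUSG00000055069). The WT libraries gave 3.12, 2.76 and 3.40 CPM, the SA libraries 2.20, 2.70 and 2.06, and the SE libraries 1.03, 1.45 and 1.78. All WT libraries were above all SA libraries, and all SA libraries above all SE libraries. SE was 2.19-fold below WT, at -1.13 ± 0.218 on the log2 scale with its standard error (edgeR adjusted p = 0.0053), and this held in the 18 other settings where the gene was tested. SE vs SA gave -0.71 ± 0.228 and missed the threshold (edgeR adjusted p = 0.0576). It passed with library totals alone (0.0458), without SE3 (0.0323) and without WT2 and SE3 together (0.0189). SA vs WT gave -0.42 ± 0.199 (edgeR adjusted p = 0.363). The paralog Rab39b had 3 counts in all libraries together.

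Rab32 was the third member called in SE vs WT. It serves lysosome-related organelles and delivers host defence factors to vacuoles that hold bacteria. The gene (ENSMUSG00000019832) lies at chromosome 10, 10545002 to 10558265, minus strand. It measured 84.6, 73.3 and 86.1 CPM in the WT libraries, 68.3, 80.5 and 68.0 in those of SA, and 67.2, 67.5 and 64.2 in those of SE. All SE libraries lay below the WT and SA libraries, and SA overlapped WT. SE was 1.23-fold below WT, at -0.30 ± 0.078 on the log2 scale with its standard error (edgeR adjusted p = 0.0349). The call ended in 9 of 19 other settings. Leaving out single libraries gave an adjusted p of 0.102 without WT1, 0.193 without WT3, 0.0527 without SA1, 0.108 without SE1, 0.0675 without SE2 and 0.0768 without SE3. It was 0.0564 with only the WT and SE libraries fitted and 0.146 without WT1 and SE2 together. SA vs WT gave -0.17 ± 0.077 (edgeR adjusted p = 0.320), and was called without WT2 and SE3 together (0.0184). Its relative Rab38, which shares its role in pigment and other specialised granules, measured 0.635 ± 0.218, 0.89 ± 0.124 and 0.856 ± 0.144 CPM in WT, SA and SE (SD, n = 3 each) and passed in no comparison.

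Rab20, which acts on maturing phagosomes, was the 1 member that rose between the mutants. It lies at chromosome 8, 11453518 to 11478710, minus strand (ENSMUSG00000031504). It measured 4.47, 6.52 and 5.17 CPM in the WT libraries, 4.19, 4.03 and 3.96 in those of SA, and 6.28, 5.41 and 5.76 in those of SE. The SA libraries lay below all others, and WT overlapped SE. SE was 1.43-fold above SA, at 0.52 ± 0.152 on the log2 scale with its standard error (edgeR adjusted p = 0.0373), and SA vs WT gave -0.39 ± 0.152 (edgeR adjusted p = 0.222). The call between the mutants ended in 9 of 19 other settings. The adjusted p was 0.0507 with DESeq2, 0.0535 with library totals alone, 0.0595 without WT3, 0.0923 without SA1, 0.113 without SA2, 0.109 without SA3, 0.148 without SE1 and 0.0652 without SE3. Rab20 shares 25.6% of its exon bases with E230013L22Rik on the other strand, and without a stated strand setting their reads cannot be told apart.

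**Figure D3:**
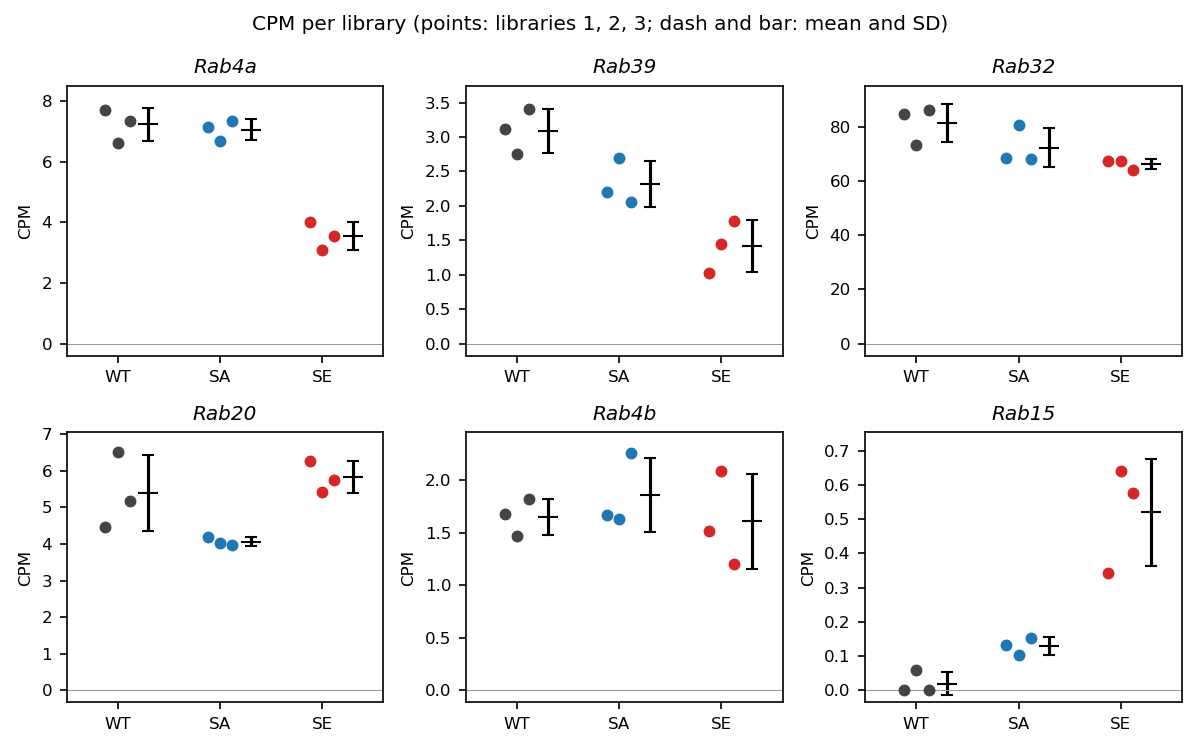
CPM per library of Rab4a, Rab39, Rab32, Rab20, Rab4b and Rab15, with the mean and SD (n = 3) beside the points of each genotype and each axis including 0. SE points lie below all WT points for Rab4a, Rab39 and Rab32, the SA points of Rab20 lie below the others, Rab4b overlaps throughout, and Rab15 is at or near 0 in WT.

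The summed levels of markers of other cell types given above moved with some of these members. Epithelial markers were higher in all SE libraries, where Rab4a, Rab39 and Rab32 were lower. T and NK cell markers were lower in every SE library than in every WT and SA library, the order that Rab4a showed, and dendritic cell markers were lower in every SE library than in every WT library. Resident large peritoneal macrophage markers were higher in every SE library than in every WT library. Fibroblast markers were higher in both mutants, with SA above SE, while Rab4a in SA overlapped WT. Neutrophil markers were lower in both mutants and lowest in SA, where Rab20 was lowest too, and platelet and red cell markers were lower in every SA library than in every SE library. Only 1 of 5 epithelial, 1 of 9 T and NK, 3 of 7 dendritic and 3 of 7 resident macrophage markers passed the filter. Those sums therefore rest on few genes. The tested epithelial marker was called higher in SE against both WT and SA. No T and NK or resident macrophage marker was called, and 1 dendritic marker was called lower, in SE vs SA only. Of 6 tested mesothelial and fibroblast markers, 5 were called higher in SA vs WT and 2 in SE vs WT. In SE vs SA 1 of them was higher and 5 were lower. Of 3 tested neutrophil markers, 1 was called lower in each mutant against WT and 1 higher in SE vs SA. In SE vs SA 1 of 3 tested platelet and red cell markers was called higher and 1 of 2 tested eosinophil markers lower. Of all tested genes, 4.07%, 5.04% and 10.2% were called in SA vs WT, SE vs WT and SE vs SA. The part of these cell types in the results was not tested.

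The bases before the start sites of Rab39 and Rab32 are shown because both genes differed between genotypes of a transcription factor. No window is printed for the other called members, Rab4a and Rab20. RefSeq entries (GRCm38.p6, the same assembly as mm10) matched 48 of the 59 members. For Rab39 the window is chr9:53706233-53706482, minus strand, the 250 bases before the start, and for Rab32 it is chr10:10558266-10558457, minus strand, 192 bases after removal of annotated exon bases. Capitals mark CCAAT, which lies in the Rab39 window and not in that of Rab32. Each is written 5′ to 3′.
Rab39: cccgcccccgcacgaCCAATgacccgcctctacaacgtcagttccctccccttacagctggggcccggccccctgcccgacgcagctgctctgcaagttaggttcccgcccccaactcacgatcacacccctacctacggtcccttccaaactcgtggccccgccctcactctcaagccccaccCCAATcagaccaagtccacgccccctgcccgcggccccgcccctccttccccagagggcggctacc
Rab32: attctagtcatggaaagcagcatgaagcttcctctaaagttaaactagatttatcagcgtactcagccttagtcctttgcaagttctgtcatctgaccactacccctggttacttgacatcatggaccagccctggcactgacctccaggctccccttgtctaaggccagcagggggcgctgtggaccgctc

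The palindrome TTCNNNNGAA, which STAT6 prefers, was searched on both strands in the 250 bases before the start. It occurred in 5.85% of 32841 promoters and in 2 of 48 matched members, Rab5b and Rab11b. Of the called members, Rab39, Rab32 and Rab20 were searched and held no match in this window, and Rab4a was not searched. These windows of 50 bases (Rab5b, chr10:128696350-128696399, minus strand, and Rab11b, chr17:33760605-33760654, minus strand) have the match in capitals.
Rab5b: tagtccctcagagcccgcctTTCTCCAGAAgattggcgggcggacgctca
Rab11b: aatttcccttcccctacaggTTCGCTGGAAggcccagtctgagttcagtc
Neither gene passed the test in any comparison. Rab5b measured 168.9, 166.1 and 163.7 CPM in the WT libraries, 166.9, 164.8 and 168.2 in those of SA, and 163.7, 158.4 and 161.1 in those of SE, and Rab11b averaged 157.9 ± 10.9, 148.2 ± 4.28 and 150.8 ± 6.15 CPM (SD, n = 3 each). The shorter spacing TTCNNNGAA, used by other STAT proteins, occurred in 7.02% of promoters and in 5 members, Rab11a, Rab15, Rab19, Rab25 and Rab34. Of other motifs, CACGTG was in 5 members (6.02% of promoters), GGAAGT in 10 (19.7%) and CCAAT in 24 (33.9%). For every motif, a member was counted once if any of its windows matched (60 windows for 48 genes). The percentages are per window, over 32841 windows of 27018 genes, so members and promoters are not in the same unit. The members' windows held a median of 15 CpG pairs against 6 over all promoters. A match describes letters only, and its absence says only that these letters are not in this window.

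Rab15, an early endosome and recycling Rab best known from neurons, was too low for the filter and was noticed after its values were seen. It lies at chromosome 12, 76797960 to 76822908, minus strand (ENSMUSG00000021062). The counts were 0, 1 and 0 for WT, 3, 2 and 3 for SA, and 7, 11 and 11 for SE. No library of 1 genotype overlapped another genotype. The ratio of SE to WT was 32.5 (exact 95% interval 5.39 to 1328.0, counting error only) and that of SE to SA was 3.95 (1.76 to 10.0). Without the filter edgeR gave an adjusted p of 0.00017 for SE vs WT. Rab15 was picked for these counts, so the ratios, their intervals and this p describe them and are no independent test. In 7 fits without 1 library the gene passed the filter, through SE2 and SE3 alone, and the adjusted p was at most 0.0244. Rab15 dropped out of the fits without SE2 or SE3, so the 7 fits add no support. Fntb, whose span holds Rab15 on the other strand with no shared exon bases, stood at 8.03 ± 0.257 CPM in WT, 7.88 ± 1.03 with SA and 8.64 ± 0.534 with SE (SD, n = 3 each).

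Other members had libraries that did not overlap without passing the test. Rab7b measured 312.0, 316.2 and 308.4 CPM in the WT libraries, 293.8, 273.7 and 284.6 in those of SA, and 295.0, 288.7 and 294.2 in those of SE. Both mutants lay below WT in every library. In SA vs WT, where it had the smallest p of the family, the difference was -0.14 ± 0.053 on the log2 scale with its standard error (edgeR adjusted p = 0.215). Rab36, a low Golgi member, ran from 0.763 to 0.799 CPM in WT, 0.529 to 0.668 in SA and 0.419 to 0.466 in SE. Its groups did not overlap in any comparison, and SE vs WT gave -0.82 ± 0.325 (edgeR adjusted p = 0.172) on 112 counts in all. Rab31 ran from 246.7 to 265.9 CPM in WT, 237.8 to 246.6 in SA and 241.4 to 245.7 in SE, and gave -0.08 in both mutants against WT (edgeR adjusted p = 0.605 and 0.448). Rab36 and Rab31 were also chosen after their values were seen.

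Within a genotype the members varied with the base composition of their transcripts. WT2 and SE3, which stood apart above, read low for AT-rich members. Rab5a measured 63.9, 47.7 and 59.9 CPM in WT1, WT2 and WT3, and 57.2, 56.0 and 45.1 in SE1, SE2 and SE3. Rab6a measured 72.7, 56.0 and 67.4 in WT, and 68.2, 72.6 and 52.4 in SE. In each case WT2 and SE3 were the lowest libraries of their genotype. GC-rich Rab1b ran the other way, with 231.7, 269.1 and 242.9 CPM in WT and 270.6, 249.3 and 281.4 in SE, where WT2 and SE3 were the highest.

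Over the 37 members of at least 5 CPM, the 18 of lower transcript GC content (36.8% to 48.9%) were below their genotype mean 15 times in WT2 and 17 times in SE3, and 2 and 3 times in WT1 and SE2. The 19 of higher GC content (49.1% to 59.5%) were below it 4 times in WT2 and 4 times in SE3, and 16 and 15 times in WT1 and SE2. Pearson's r of the deviation with GC content over these members was 0.716 in WT2 and 0.665 in SE3. It was -0.694 in WT1, -0.233 in WT3, -0.514 in SE2 and -0.364 in SE1. Deviations are centred within the 3 libraries of a genotype, so opposite signs and counts are partly fixed by the centring. Among the SA libraries r was 0.009, -0.511 and 0.525. These are descriptions across genes that share a library, and over all 13489 tested genes with a GC content r was 0.433 in WT2 and 0.386 in SE3.

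**Figure D4:**
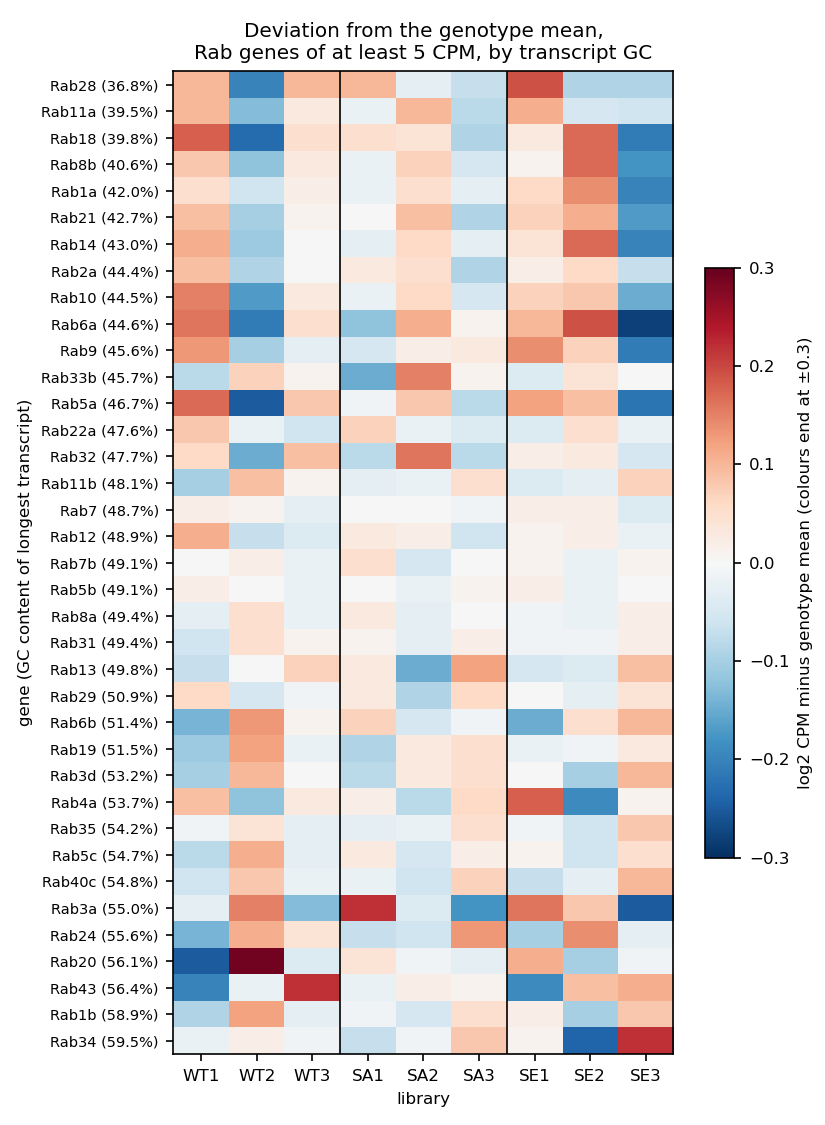
Deviation of log2 CPM from the genotype mean for the 37 Rab genes of at least 5 CPM (rows, in order of the GC content of the longest transcript) in the 9 libraries (columns), with colours ending at 0.3. The 18 rows of lower GC content are mostly blue in WT2 and SE3 and mostly red in WT1 and SE2, and the pattern turns in the rows of higher GC content, for example in Rab1b.

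With an offset for GC content added to the fit, an alternative chosen after seeing the data, Rab4a kept its size at -1.06 in SE vs WT and -1.02 in SE vs SA. Rab39 gave -1.07 in SE vs WT (edgeR adjusted p = 0.00215). Rab10, which carries cargo to the plasma membrane, was called with this offset. It measured 192.5, 154.1 and 177.3 CPM in the WT libraries, 170.9, 180.4 and 167.5 in those of SA, and 205.6, 207.7 and 177.2 in those of SE. WT2 was the lowest WT library and SE3 the lowest SE library. Without the offset the differences were 0.17 (SE vs WT) and 0.19 (SE vs SA, edgeR adjusted p = 0.256 and 0.160), and with it 0.20 and 0.23 (0.00695 and 0.0016). Without SE3 alone, SE vs SA was 0.26 (edgeR adjusted p = 0.041). Rab7b in SA vs WT also passed with the offset (edgeR adjusted p = 0.0456).

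The genes that load, switch off and read Rab proteins were summarised from 4 lists. Of 151 genes, 137 were tested, and 4 were called in SA vs WT (2.92%), 4 in SE vs WT (2.92%) and 11 in SE vs SA (8.03%), beside 4.07%, 5.04% and 10.2% of all genes. The 8 genes of prenylation and GDP dissociation held 1 call: Chml, a Rab escort protein, fell in SE vs SA by 0.58 on the log2 scale (edgeR adjusted p = 0.0104), and missed the threshold without SA1 or SE1 (at most 0.0594). Its means were 9.08 ± 1.68, 10.6 ± 0.663 and 7.09 ± 0.825 CPM for WT, SA and SE (SD, n = 3 each).

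Of 46 tested GEFs, 1 rose in SA vs WT, 1 rose in SE vs WT and 3 fell in SE vs SA. These are 2.17%, 2.17% and 6.52%, against 4.07%, 5.04% and 10.2% of all tested genes. Dennd1c, a DENN domain exchange factor, measured 61.6 to 69.7 CPM in WT with a mean of 66.4 ± 4.26, and averaged 78.8 ± 1.96 in SA and 61.1 ± 2.61 in SE (SD, n = 3 each). All SA libraries were above the rest. SE was 1.29-fold below SA (edgeR adjusted p = 0.00152), a call that held in all 19 other settings, whereas the rise in SA vs WT of 0.25 on the log2 scale (edgeR adjusted p = 0.0394) was lost in 8 of 19, among them without WT1, WT3, SE1 or any SA library (adjusted p up to 0.246). Rab3il1, an exchange factor for Rab8, rose by 0.21 in SE vs WT to 535.7 ± 29.8 CPM from 462.4 ± 17.7 (SD, n = 3 each, edgeR adjusted p = 0.0416), and lost the call in 10 of 19, among them without WT1, WT3, SE1, SE3 or any SA library (up to 0.185). Dennd2c and Dennd4a fell in SE vs SA by 0.53 and 0.31 on the log2 scale (edgeR adjusted p = 0.0361 and 0.0227), each lost in 5 of 19, including without SA1, SA2, SE1 or SE2 (up to 0.185 and 0.106).

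Among 38 tested GAPs, 1 fell in SA vs WT, 1 fell in SE vs WT, and 1 rose and 3 fell in SE vs SA. That is 2.63%, 2.63% and 10.5%, against 4.07%, 5.04% and 10.2% of all tested genes. Tbc1d9 measured 78.1, 86.2 and 82.4 CPM in the WT libraries, 62.2, 70.0 and 71.4 in those of SA, and 78.6, 82.9 and 87.0 in those of SE. All SA libraries lay below the others. It fell by 0.28 in SA vs WT and rose by 0.29 in SE vs SA on the log2 scale (edgeR adjusted p = 0.0293 and 0.0131). The first call was lost without WT2, WT3, SA1 or SA2 (up to 0.224), the second without SA1 (0.0981). Tbck fell in SE vs WT by 0.30 (edgeR adjusted p = 0.0489), and lost the call in 10 of 19, among them without WT1, WT3, SE1, SE3 or any SA library (up to 0.227). In SE vs SA Tbc1d4, a GAP of Rab10, Tbc1d8 and Tbc1d5, a GAP of Rab7, fell by 0.31, 0.27 and 0.19 (edgeR adjusted p = 0.0374, 0.0234 and 0.0374). These calls were lost without WT3, SA1, SA2 or SE1 for Tbc1d4 (up to 0.204), without SA2, SA3, SE1 or SE2 for Tbc1d8 (up to 0.135), and without WT3 or any SA or SE library for Tbc1d5 (up to 0.125).

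The 45 tested effectors held 2 falls in SA vs WT, 2 falls in SE vs WT, and 2 rises and 1 fall in SE vs SA. Their shares called were 4.44%, 4.44% and 6.67%, against 4.07%, 5.04% and 10.2% of all tested genes. Rab11fip4, an effector of Rab11, measured 9.03, 9.33 and 8.52 CPM in the WT libraries, 5.51, 5.30 and 7.04 in those of SA, and 9.36, 11.2 and 11.6 in those of SE. The SA libraries lay below all others and SE above WT. It fell by 0.59 in SA vs WT (edgeR adjusted p = 0.0129, lost without SA1 or SA2, at most 0.0927) and exceeded SA by 1.80-fold in SE (edgeR adjusted p = 0.000369), which held in all 19 other settings. Rilpl2, which binds phosphorylated Rab8 and Rab10, averaged 126.0 ± 12.4, 102.2 ± 4.95 and 132.3 ± 8.21 CPM (SD, n = 3 each). In SE it exceeded SA by 1.30-fold (edgeR adjusted p = 0.00322, held in all 19), and its fall of 0.30 in SA vs WT (edgeR adjusted p = 0.0252) was lost without WT2, WT3, SA1 or SA2 (up to 0.154). Lrrk2, the kinase that phosphorylates those Rab proteins, fell by 0.35 in SE vs WT (edgeR adjusted p = 0.044), and lost the call in 15 of 19, including without any 1 library (0.0558 to 0.19). Fyco1, a Rab7 effector, fell by 0.30 (edgeR adjusted p = 0.0297), lost in 4 of 19, including without WT1 (0.122) or SE1 (0.158). Rab11fip1 fell by 0.27 in SE vs SA (edgeR adjusted p = 0.0484), lost in 13 of 19, including without WT1, WT3 or any SA or SE library (0.0518 to 0.156).

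**Figure D5:**
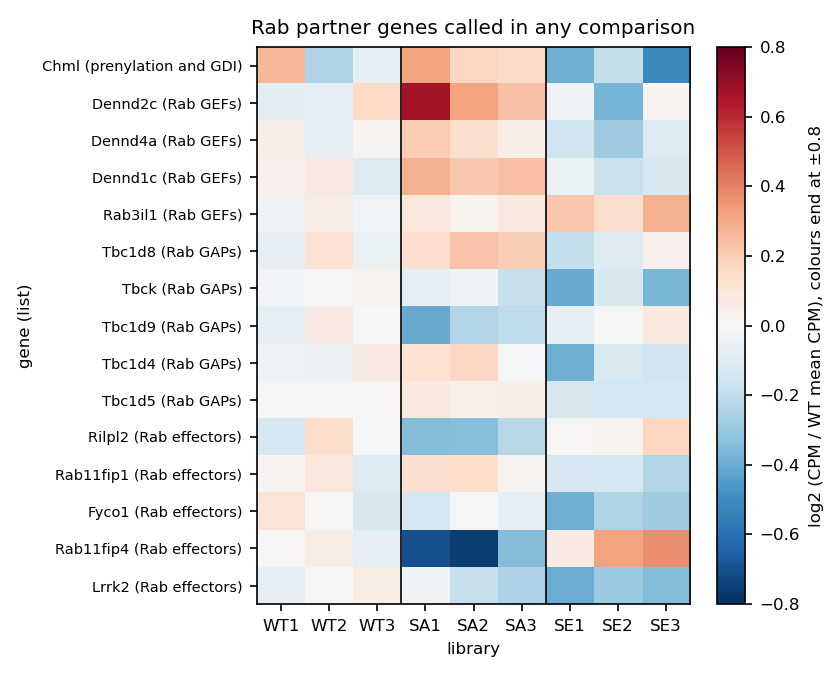
Log2 of CPM over the WT mean CPM in each library (columns) for the 15 Rab partner genes called in any comparison (rows, with their list), with colours ending at 0.8. Rab11fip4, Rilpl2 and Tbc1d9 are lower in all SA libraries than in SE, and Dennd1c is higher in all SA libraries.

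The tested genes whose log2 CPM followed Rab4a most closely over the 9 libraries were Wdfy1 (Pearson r = 0.987), Eif4b (0.985), Ing1 (0.978), Blmh (0.977) and St3gal5 (0.973), among 9551 genes of at least 5 CPM. The libraries share 3 genotypes, so the coefficients mostly follow group means. Wdfy1 had means of 37.6 ± 1.84, 39.2 ± 0.976 and 21.6 ± 1.54 CPM for WT, SA and SE (SD, n = 3 each), and Eif4b had means of 386.0, 382.8 and 348.2 CPM.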

How the data were processed

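Read counts, not normalized, of each Ensembl gene were deposited by the authors for 9 libraries. Per the submitters' processing notes, the authors used HISAT2 2.1.0 and featureCounts with mm10. For featureCounts the version, annotation release, strand setting and treatment of multiply mapping reads were not given in the sources used here. GENCODE M21 supplied symbols, positions and exon lengths for 55141 of 55401 gene IDs. Library totals of 17286617 to 24618608 counts make 3 counts worth 0.12 to 0.176 CPM.

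Groups followed the genotype labels. In R 4.3.3, edgeR 4.0.16 fitted all 9 libraries with genotype as the only factor: filterByExpr (minimum count 10, minimum total 15) kept 13501 genes, libraries were scaled by TMM, and the robust quasi-likelihood F test (2-sided, 6 residual degrees of freedom, biological coefficient of variation 6.75%) was adjusted by Benjamini-Hochberg over all tested genes, with calls under 0.05. Per-library CPM, TPM and the standard errors come from these counts and this fit. Each standard error is the absolute log2 difference divided by the square root of its F statistic. The fit was tested on simulated data. The text names Stat6, every called member, the 2 members of highest TPM in each role class, numbered paralogs of called members, the member of smallest p in a comparison without calls, called genes of the partner lists (at most 3 in each direction), and the 5 genes most correlated with Rab4a. The other members described were picked after their values were seen. Alternatives were DESeq2 1.42.0, other scalings and filters, libraries left out, a replicate block, fits of 2 genotypes, a GC offset and longest-transcript lengths for TPM. Family members, role classes, partner lists and marker lists were chosen with earlier results of these data known. Protein sequences were not used here, and 1 marker list is not reported here.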

Additional observations from a re-analysis of the deposited data

How the results depend on the processing

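With 3 libraries per genotype, some calls depended on single libraries. The 1.23-fold difference of Rab32 in SE vs WT lost its call without WT1, WT3, SA1 or any SE library. The 1.43-fold difference of Rab20 in SE vs SA lost its call without WT3, SE1, SE3 or any SA library. Rab4a was called in both SE comparisons, and Rab39 in SE vs WT, under every setting in which they were tested, and no called difference changed direction. The number of Rab genes called in SA vs WT was 0 in all fits that leave out 1 library and in the other settings, except 1 without WT2 and SE3 together (Rab32) and 1 with the GC offset (Rab7b). In SE vs WT it was 2 to 4 when 1 library was left out, and in SE vs SA 1 to 3, with 1 (Rab4a) without SA1, SA2 or SA3. Some of these counts include Rab15, which is not among the members tested in the main fit. In SE vs WT, Rab15 entered and Rab32 was lost without WT1, WT3, SA1 or SE1. Each count of 4 there was Rab15 with Rab4a, Rab39 and Rab32. In SE vs SA it was 1 with DESeq2 (Rab4a), 4 without WT2 and SE3 together (Rab4a, Rab20, Rab39 and Rab10) and 4 with the GC offset (Rab4a, Rab20, Rab10 and Rab21). The removal of WT1 and SE2 together, like the GC offset, was chosen after seeing the data.

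Over all genes, 549, 680 and 1376 were called in SA vs WT, SE vs WT and SE vs SA. Leaving out 1 library gave 297 (without WT3) to 652, 292 (without WT3) to 1097 (without WT2), and 781 (without SA2) to 1762. Counts also moved by over 1.5 times without SA1 in SA vs WT (308), without SE1 in SE vs WT (332), and without SA1, SA3 or SE1 in SE vs SA (836, 908 and 811). Without WT2 and SE3 together SA vs WT gave 903 and SE vs WT 1215, and the GC offset gave 999, 1413 and 2109. SE vs WT gave 438 with only those genotypes fitted and 372 without WT1 and SE2 together. The summed family level with longest-transcript lengths was 4131.2 TPM in WT, 4195.2 in SA and 4041.1 in SE, since those lengths differ from the exon unions. The sums without 1 library were 4604.4 to 4801.6, 4740.6 to 4806.5 and 4558.1 to 4683.6 TPM. The cause of the other shifts was not tested.

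Deviations from the genotype mean correlated at -0.195 to 0.105 between libraries of the same replicate number, and WT2 correlated most with SE3 (0.27). Equal numbers thus did not show as pairs in these values, which are centred within 3 libraries and vary with GC content. Whether equal numbers share an animal or day is not said in the labels. The fit with the replicate number as a block called 0, 2 and 1 Rab genes in the 3 comparisons, without Rab32 (adjusted p = 0.0623) and Rab20 (0.0531), and 500, 568 and 1189 of all genes.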
